A study of Mus musculus with 6 samples.

Results

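Mitochondrial ribosomal protein genes were compared between livers of mice on a high-fat, high-calorie diet and livers of mice on chow. Members were all protein-coding rows of the count table whose symbol begins with Mrpl or Mrps followed by a digit, which gave 78 of the 20107 genes listed. Of these, 49 carry Mrpl names, given to proteins of the large subunit, and 29 carry Mrps names, given to proteins of the small subunit. All animals were wild-type male C57BL/6N littermates (Envigo) whose livers were taken at 16 weeks of age. The HFHC group (n = 3, replicates 1, 2 and 3) received, from 8 weeks of age and for 8 weeks, food rich in fat and calories that contained fructose, together with a high-fructose drink. The Chow group (n = 3, replicates 7, 8 and 9) received chow over the same 8 weeks. Total liver RNA was depleted of ribosomal RNA and sequenced on a NextSeq500, with 1 library per animal. The counts are of bulk liver, so fewer cells of a type and less RNA per cell cannot be told apart.

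The mitochondrial ribosome translates the few messages that the mitochondrial genome encodes, which specify core subunits of the respiratory chain and of ATP synthase. Its RNA comes from the mitochondrial genome, but all of its proteins are encoded in the nucleus, translated in the cytosol and imported. Some of them descend from proteins of the bacterial ribosome, and others are found only in mitochondria. In the liver, mitochondria carry out fatty acid oxidation and house part of the urea cycle. Mitochondrially encoded genes were not analysed here.

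The HFHC libraries held 30096409 to 30871297 counts and the Chow libraries held 26767416 to 27339613, so that 1 count stood for 0.0318 to 0.0379 CPM. CPM are counts scaled to a common library total, here after adjustment of library sizes by TMM factors. In a principal component analysis of all tested genes, HFHC and Chow livers fell on opposite sides of the first component (47.0% of variance), and the second (16.5%) put Chow replicate 8 at 29.21 and the other 5 libraries between -11.7 and 3.66. Summed markers of hepatocytes spanned 79000 to 82500 CPM in HFHC livers and 71600 to 90600 CPM in Chow livers, with Alb, the gene for albumin, at 49300 CPM or more in every library. Of the 8 hepatocyte markers none passed as higher and 2 passed as lower by edgeR's quasi-likelihood test. These 2 were Cps1 (log2 fold change -0.75, adjusted p = 0.00837, edgeR) and Tat (-1.0, adjusted p = 0.00673, edgeR). By the same test 6.67% of all tested genes passed, 3.38% as higher and 3.3% as lower. Of 26 tested markers of 9 other cell types, 2 passed as higher and 0 as lower. They were the haemoglobin gene Hba-a1 (0.37, adjusted p = 0.0278) and Cfd, an adipocyte gene at 0.382, 1.7 and 0.402 CPM in HFHC livers and 0, 0 and 0.0377 CPM in Chow livers. Summed Kupffer cell markers spanned 213 to 260 CPM in HFHC livers and 177 to 212 CPM in Chow livers. Clec4f and Cd5l made up most of that sum, and 0 of the 6 Kupffer cell markers passed. Log2 fold changes were positive for Clec4f (0.3), Cd5l (0.28), Adgre1 (0.25) and Marco (0.04), and negative for Vsig4 (-0.14) and Timd4 (-0.03). Summed sinusoidal endothelial cell markers spanned 117 to 129 CPM in HFHC livers and 118 to 121 CPM in Chow livers. The part of these markers in the results below was not tested.

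Promoters are shown for 4 members, 3 that were among the lowest in p with a higher HFHC mean (Mrps18a, Mrpl51 and Mrpl48) and the member with the most negative fold change (Mrps9). Each stretch runs from 120 bases before to 30 bases after the RefSeq start site (GRCm38.p6), 5′ to 3′ on the gene's strand. Capitals mark matches to CCGGAAG, the core bound by ETS factors such as GABP, to AAGATGGC, the core bound by YY1, or to GCGC, any base and TGCGC in a row, the motif bound by NRF1. All of these factors are known regulators of nuclear genes for mitochondrial proteins.
Mrps18a chr17:46110884-46111033 (+): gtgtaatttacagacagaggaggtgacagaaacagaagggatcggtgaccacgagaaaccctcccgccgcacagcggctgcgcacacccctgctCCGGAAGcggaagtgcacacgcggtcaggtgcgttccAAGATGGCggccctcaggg
Mrpl51 chr6:125192080-125192229 (+): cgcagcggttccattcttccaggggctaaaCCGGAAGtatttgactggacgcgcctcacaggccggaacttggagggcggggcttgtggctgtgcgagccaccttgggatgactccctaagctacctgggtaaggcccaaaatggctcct
Mrps9 chr1:42851113-42851262 (+): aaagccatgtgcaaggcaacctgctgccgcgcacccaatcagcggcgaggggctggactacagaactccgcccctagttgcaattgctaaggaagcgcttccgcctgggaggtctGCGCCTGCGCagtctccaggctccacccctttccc
Mrpl48 chr7:100608272-100608421 (-): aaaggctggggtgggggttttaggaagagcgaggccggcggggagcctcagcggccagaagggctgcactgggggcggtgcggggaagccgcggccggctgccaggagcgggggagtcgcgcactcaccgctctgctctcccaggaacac

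The stretch of Mrps18a held the ETS and YY1 letters, that of Mrpl51 the ETS letters and that of Mrps9 the NRF1 letters, while none of the 3 motifs lay in that of Mrpl48. The RefSeq start of Mrpl51 lies 399 bases from the gene end given in the table, that of Mrps18a 18 bases, and those of Mrps9 and Mrpl48 coincide with it. Over the full 300 bases held by RefSeq (250 before and 50 after the start), searched on both strands, 69 of the 78 members had an entry. The ETS letters occurred in 24 of these 69 (34.8%), against 18.2% of 9973 protein-coding promoters. The YY1 letters occurred in 12 members (17.4%), against 4.63% of all, and the NRF1 letters in 13 (18.8%), against 10.5% of all. Of the 12 YY1 matches in members, 8 began within the 50 bases after the start site and so lay in transcribed sequence. At least 1 of the 3 motifs lay in 41 members (59.4%), against 29.6% of all, and in no member did matches to different motifs overlap. Members with at least 1 motif had a median log2 fold change of 0.11 (n = 41) and members with none had 0.09 (n = 28). A match to these letters describes the sequence and not the binding of a factor.

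No mitochondrial ribosomal protein gene passed the test for a difference between HFHC and Chow livers, and most estimates were small and positive. All 78 members passed the count filter and were tested. By edgeR's quasi-likelihood test, with p adjusted by Benjamini-Hochberg over the 14896 genes tested, 0 members passed as higher and 0 as lower at an adjusted p under 0.05, where 6.67% of all tested genes passed (3.38% higher and 3.3% lower). At an unadjusted p under 0.05 there were 15 members, 14 of them higher in HFHC and 1 lower, where 22.2% of all tested genes reached that level (10.8% higher and 11.5% lower). DESeq2 called 1 member higher and limma-voom called 0, where 6.05% and 6.4% of all tested genes passed. All p values reflect only how far these 6 animals varied.

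Estimates for most members were narrow. The 95% interval of the fold change lay within 1.5-fold in both directions for 76 members (97.4%), against 62.0% of all tested genes and 67.2% of tested protein-coding genes. The exceptions were Mrps28, with an interval of 0.16 to 0.67 on the log2 scale, and Mrpl23, with -0.14 to 1.25. The median half-width of the interval was 0.21 for members and 0.28 for all tested genes. The median level per kilobase of transcript was 16.2 CPM for members and 4.84 CPM for tested protein-coding genes. The part of level in the interval widths was not tested. The plot of member fold changes shows these intervals.

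**Figure D1:**
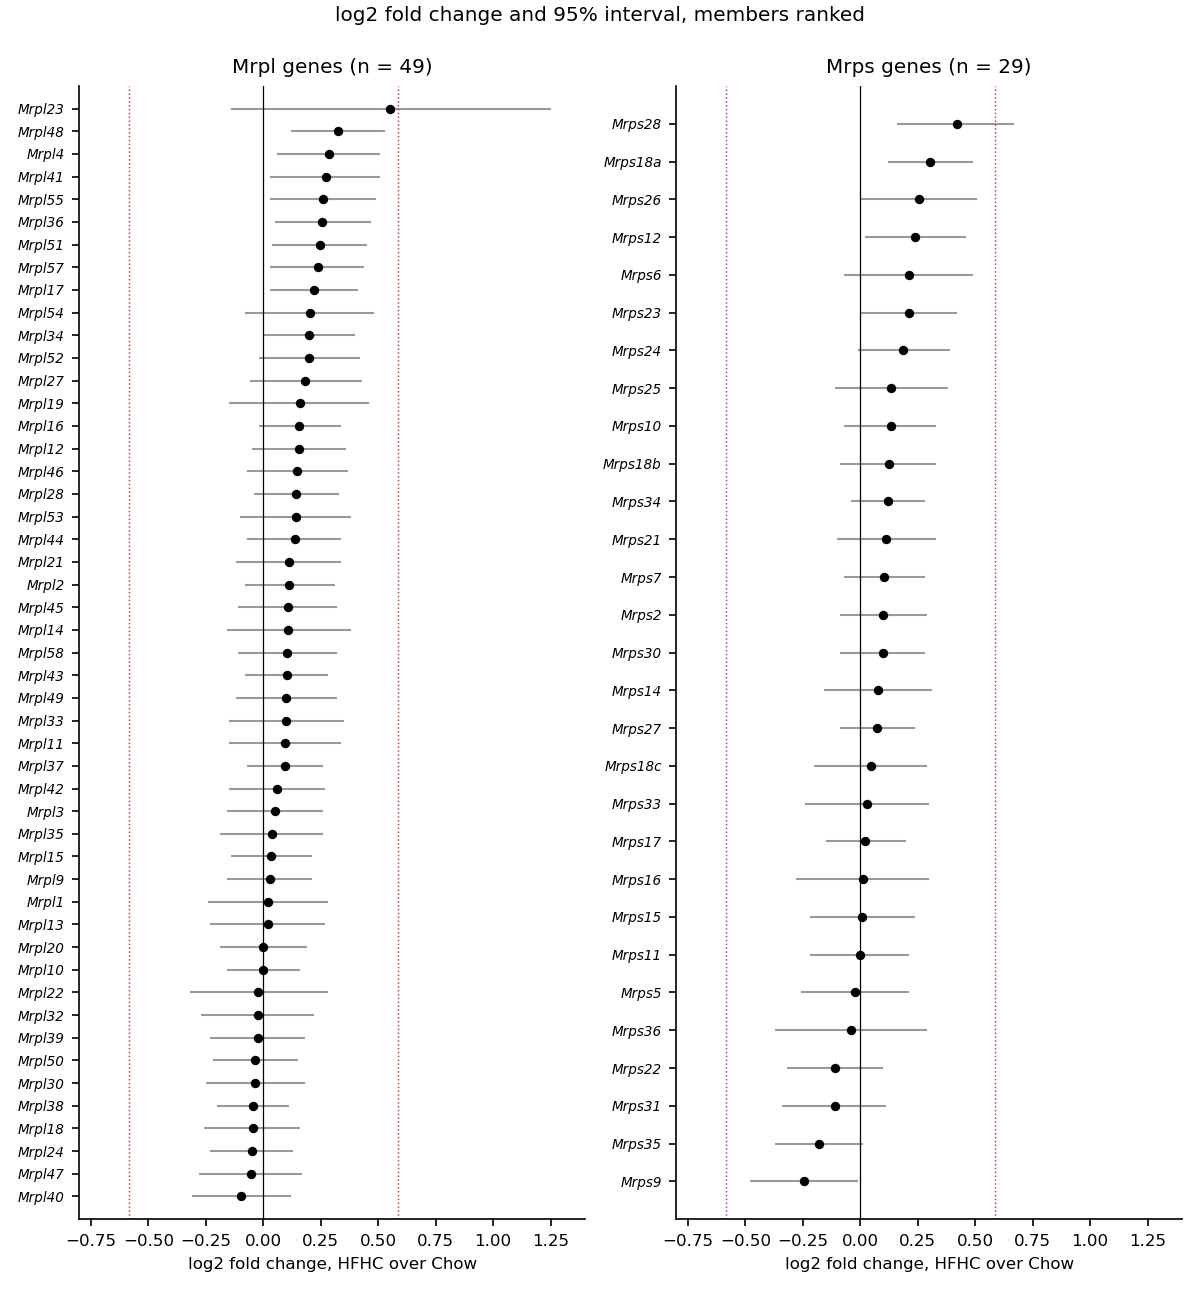
log2 fold change of each member (HFHC over Chow, horizontal axis; points) with its 95% interval (grey lines), ranked within the 49 Mrpl genes (left) and the 29 Mrps genes (right); red dotted lines mark a 1.5-fold difference. Most points lie a little to the right of 0, and only the intervals of Mrps28 and Mrpl23 reach past the dotted lines.

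Small positive differences were found for most members. The log2 fold change was positive for 59 members and negative for 19, with a median of 0.10, quartiles of 0.01 and 0.17 and a range of -0.24 to 0.55. Over all tested genes 49.5% of the values were positive and the median was -0.003. All 3 HFHC libraries lay above all 3 Chow libraries for 19 members (24.4%), where 13.5% of all tested genes did so, and below them for 2 members (2.6%), where 14.3% did so. In the fits that left out 1 library, 48 (without HFHC replicate 3) to 68 members (without HFHC replicate 2) had positive values. Each library was also corrected for its dependence on the GC content and length of transcripts. After that the median of the members was 0.04, with 50 positive, and that of all tested genes -0.014. Members have short transcripts, with a median length of 1302 bases against 3010 bases for tested protein-coding genes. Their median GC content was 50.4%, against 50.2%.

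**Figure D2:**
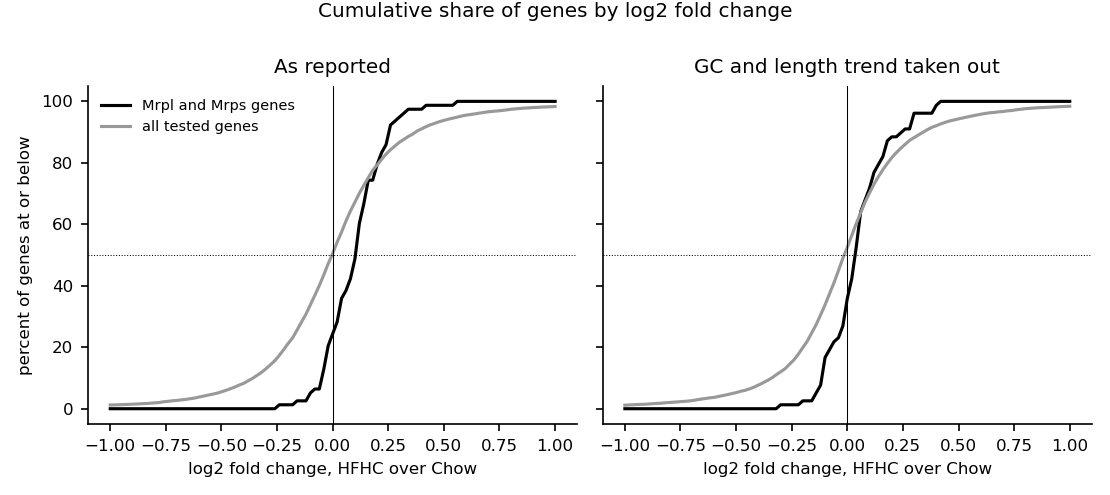
Cumulative percent of genes (vertical axis) at or below each log2 fold change (HFHC over Chow, horizontal axis) for the 78 Mrpl and Mrps genes (black) and all tested genes (grey), in the fit as reported (left) and after correction for GC content and length (right). The black curve crosses the dotted 50% line at about 0.10 on the left and 0.04 on the right, while the grey curve crosses it near 0 in both.

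Medians differed little between classes of members. The median log2 fold change was 0.11 for the 49 Mrpl genes and 0.10 for the 29 Mrps genes. These groups follow gene names and not the place of the protein, since Mrps18a and Mrps30 encode proteins of the large subunit. The median was 0.09 for the 45 members with a homolog in the bacterial ribosome and 0.11 for the 31 classed as specific to mitochondria. Mrps18a and Mrps18b, which are distant relatives of bacterial S18, were counted with the 31, and Mrps18c with the 45. Mrpl55 and Mrps36 were put in neither class. Mrps36, whose product is now known as a part of the 2-oxoglutarate dehydrogenase complex, averaged 3.84 ± 0.33 CPM in HFHC livers and 3.96 ± 0.41 CPM in Chow livers (SD, n = 3 each). Pseudogenes that match it at 99% of aligned bases or more are listed as well, and summed with them it averaged 5.6 ± 0.43 CPM in HFHC livers and 5.77 ± 0.79 CPM in Chow livers (SD, n = 3 each), so its own level is uncertain.

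Summed over the family, the level was 1985, 1877 and 2156 CPM in HFHC livers (2006 ± 141, SD, n = 3) and 1903, 1834 and 1943 CPM in Chow livers (1893 ± 55.3, SD, n = 3). The diets overlapped, since HFHC replicate 2 lay below Chow replicates 7 and 9. The Mrpl genes summed to 1329, 1256 and 1443 CPM in HFHC livers and 1275, 1223 and 1300 CPM in Chow livers. The Mrps genes summed to 656, 622 and 713 CPM in HFHC livers and 629, 611 and 643 CPM in Chow livers. Both classes followed the same order of libraries as the whole family.

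Many members shared an order of libraries within a diet. The median log2 deviation of a member from its own mean was 0.026, -0.047 and 0.146 in the HFHC libraries and -0.033, -0.084 and -0.007 in the Chow libraries. HFHC replicate 3 was the highest of its diet for 61 members and HFHC replicate 2 the lowest for 58. Chow replicate 8 was the lowest of its diet for 46 members. The median log2 fold change of the family was 0.05 without HFHC replicate 3, 0.14 without HFHC replicate 2 and 0.08 without Chow replicate 8. Subunits of complex I and complex V showed a like order of libraries, with the highest median in HFHC replicate 3 (0.176 and 0.164) and the lowest in Chow replicate 8 (-0.15 and -0.16). The order within a diet was not particular to mitochondrial genes. Cytosolic ribosomal protein genes shared it, at -0.03, -0.212 and 0.092 in the HFHC libraries and 0.093, -0.048 and 0.112 in the Chow libraries. Mitochondrial tRNA synthetases and the transcription regulators differed, with HFHC replicate 2 the highest of its diet (0.082 and -0.047).

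**Figure D3:**
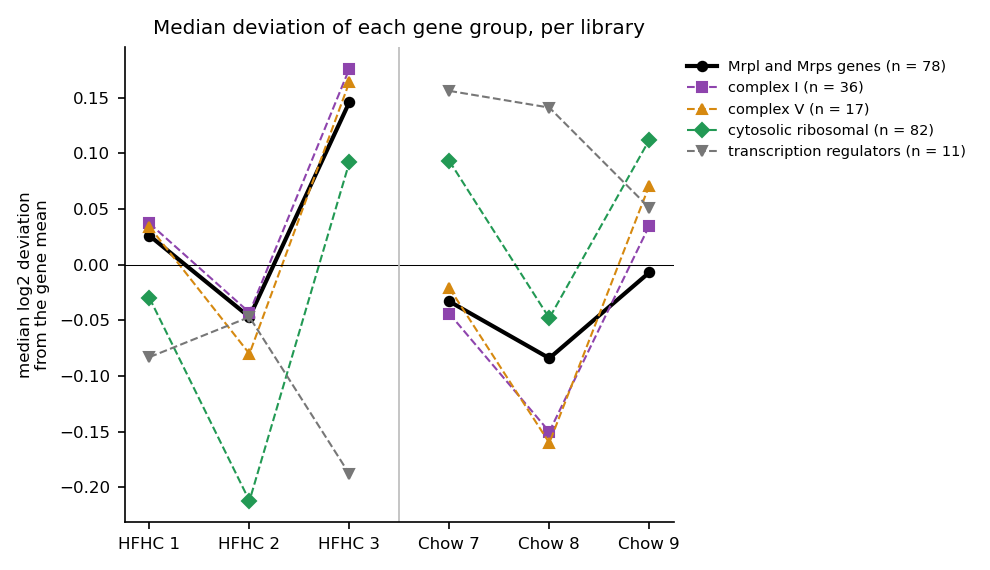
Median log2 deviation from the gene mean (vertical axis) in each library (horizontal axis, HFHC left and Chow right of the grey line) for the Mrpl and Mrps genes (black) and 4 other gene groups; lines join libraries of 1 diet to aid the eye and have no order. The black line peaks in HFHC replicate 3 at 0.146 and is lowest in Chow replicate 8 at -0.084.

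The 6 members with the smallest p were all higher on average in HFHC livers. In each of them the diets did not overlap, which a choice by smallest p favours. Every HFHC library lay above every Chow library for 13.5% of all tested genes. Mrps28, related to bacterial ribosomal protein S1, had 17.7, 14.9 and 18.2 CPM in HFHC livers and 13.2, 11.3 and 13.5 CPM in Chow livers. Every HFHC library lay above every Chow library, with HFHC replicate 2 the nearest to them. The log2 fold change was 0.42 ± 0.11 (SE), and the adjusted p of 0.0592 (edgeR) missed the threshold, while DESeq2 gave 0.0396. Over all alternatives its adjusted p spanned 0.0396 to 0.161.

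Mrps18a is 1 of 3 mammalian paralogs related to bacterial S18, and despite its name its product sits in the large subunit. It had 24.0, 22.0 and 23.6 CPM in HFHC livers and 18.3, 19.1 and 19.1 CPM in Chow livers. The libraries of each diet lay close together and the diets were apart. The log2 fold change was 0.30 ± 0.08 (SE; adjusted p = 0.0594, edgeR). With upper-quartile factors the adjusted p was 0.0459, and over all alternatives it spanned 0.0459 to 0.200. The other paralogs, which belong to the small subunit, differed less between diets. Mrps18b had 26.9, 25.2 and 31.1 CPM in HFHC livers and 25.2, 25.7 and 25.5 CPM in Chow livers, a log2 fold change of 0.12 ± 0.09 (SE; adjusted p = 0.490, edgeR). Mrps18c had 20.9, 20.5 and 25.3 CPM in HFHC livers and 23.0, 19.8 and 21.8 CPM in Chow livers, a log2 fold change of 0.05 ± 0.11 (SE; adjusted p = 0.850, edgeR). The diets overlapped in both, and a difference between paralogs was not tested.

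Mrpl48 encodes a protein of the central protuberance, the knob of the large subunit that faces the small subunit. Its level was 16.9, 15.9 and 15.7 CPM in HFHC livers and 12.6, 13.6 and 12.5 CPM in Chow livers. The diets were apart, with a log2 fold change of 0.33 ± 0.09 (SE; adjusted p = 0.0624, edgeR). The test called it with upper-quartile factors and after correction for GC content and length, and its adjusted p spanned 0.0281 to 0.195 over all alternatives. The table also lists Mrpl48-ps, a pseudogene whose transcript matches Mrpl48 at 98.1% of 636 aligned bases, so reads may be divided between the rows. Summed with the pseudogene, Mrpl48 had 24.0, 21.5 and 21.5 CPM in HFHC livers and 18.6, 17.1 and 18.5 CPM in Chow livers, a log2 difference of 0.31.

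Mrpl4, related to bacterial L4, which lines the exit tunnel, had 27.2, 21.4 and 23.8 CPM in HFHC livers and 20.3, 19.6 and 19.5 CPM in Chow livers. The HFHC libraries were spread more widely than the Chow libraries but all lay above them (log2 fold change 0.28 ± 0.10, SE; adjusted p = 0.135, edgeR). Mrpl36, related to the small bacterial protein L36, had 18.1, 19.1 and 19.95 CPM in HFHC livers and 15.6, 14.9 and 17.3 CPM in Chow livers, again without overlap (0.26 ± 0.09, SE; adjusted p = 0.140, edgeR). Mrpl51, a protein of the large subunit found only in mitochondria, had 39.5, 34.2 and 41.9 CPM in HFHC livers and 31.7, 33.3 and 32.4 CPM in Chow livers. HFHC replicate 2 lay just above the highest Chow library (0.25 ± 0.09, SE; adjusted p = 0.144, edgeR). None of these 3 passed under any of the alternatives.

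**Figure D4:**
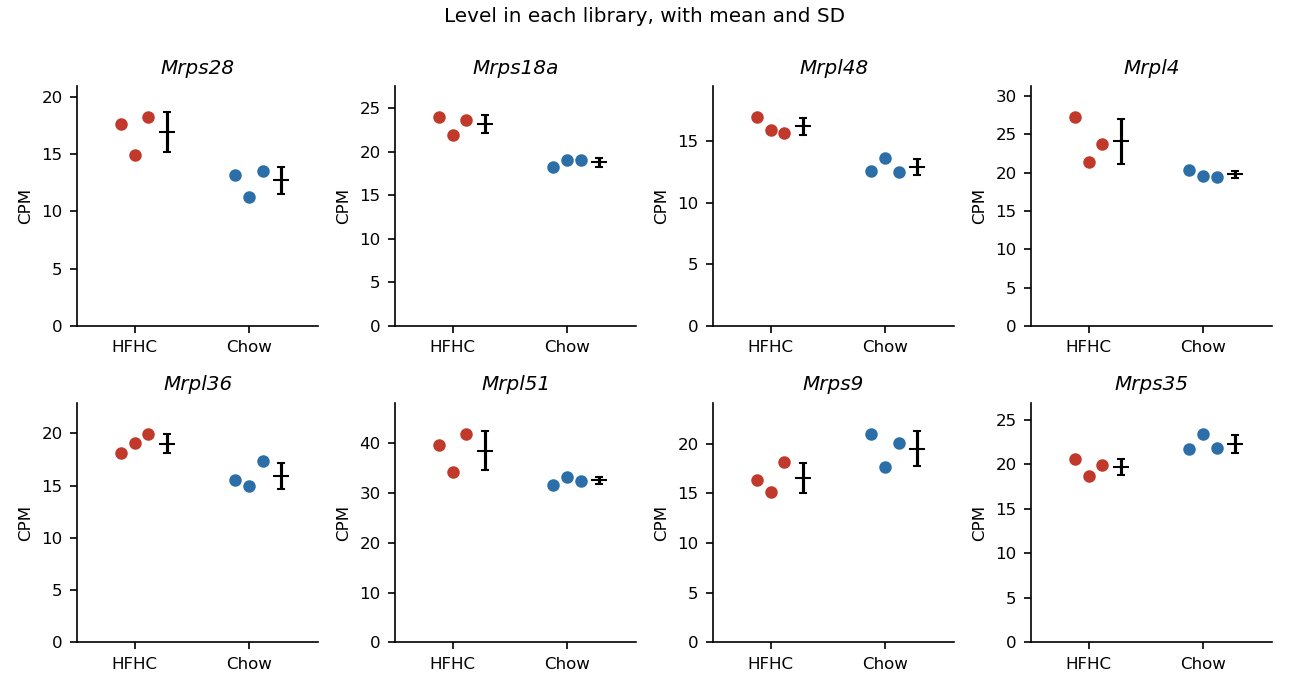
Level in CPM (vertical axis, from 0) of 8 members in each library, with HFHC left and Chow right; points are libraries, and the black bar beside them is the mean with its SD (n = 3 each). In the first 6 panels every HFHC point lies above every Chow point, in Mrps9 the diets overlap, and in Mrps35 every HFHC point lies below every Chow point.

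Differences in the other direction were few. Mrps9, whose bacterial counterpart S9 reaches the tRNA in the peptidyl site, had 16.3, 15.1 and 18.1 CPM in HFHC livers and 20.98, 17.6 and 20.02 CPM in Chow livers. HFHC replicate 3 exceeded Chow replicate 8, so the diets overlapped, and the log2 fold change was -0.24 ± 0.11 (SE; adjusted p = 0.209, edgeR). Mrps35, a small subunit protein found only in mitochondria, had 20.5, 18.7 and 19.9 CPM in HFHC livers and 21.7, 23.4 and 21.8 CPM in Chow livers. The diets were apart by a small margin (-0.18 ± 0.08, SE; adjusted p = 0.250, edgeR). Mrpl38, a protein of the central protuberance, had 39.67, 38.71 and 38.87 CPM in HFHC livers and 40.9, 40.19 and 39.67 CPM in Chow livers, so that the highest HFHC library came just under the lowest Chow library. Its log2 fold change was -0.04 (adjusted p = 0.772, edgeR).

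Further members with known roles showed the same narrow range. Mrpl12, the stalk protein that contacts translation factors, had 80.5, 75.9 and 91.2 CPM in HFHC livers and 72.4, 70.0 and 79.9 CPM in Chow livers, with overlap (0.16, adjusted p = 0.374, edgeR). Mrpl10 and Mrpl11, which form the base of the stalk, had log2 fold changes of -0.002 and 0.09. Mrps12, the counterpart of the bacterial decoding-site protein S12, had 23.95, 20.91 and 23.84 CPM in HFHC livers and 19.28, 17.96 and 20.93 CPM in Chow livers, with a slight overlap (0.24, adjusted p = 0.177, edgeR). Mrpl45, which helps to anchor the ribosome at the inner membrane, averaged 22.9 ± 2.13 CPM in HFHC livers and 21.2 ± 1.12 CPM in Chow livers (SD, n = 3 each). Mrpl58, a peptidyl-tRNA hydrolase built into the large subunit, averaged 22.1 ± 1.47 CPM in HFHC livers and 20.6 ± 1.91 CPM in Chow livers (SD, n = 3 each). Mrps30, another protein that sits in the large subunit despite its name, averaged 22.8 ± 1.11 CPM in HFHC livers and 21.3 ± 0.81 CPM in Chow livers (SD, n = 3 each).

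Mrpl23 had the largest fold change and the least certain one. It had 1.226, 1.196 and 1.306 CPM in HFHC livers and 0.721, 0.544 and 1.27 CPM in Chow livers, and Chow replicate 9 lay within the HFHC range. The log2 fold change was 0.55 ± 0.31 (SE; adjusted p = 0.340, edgeR). The transcript of the pseudogene Mrpl23-ps1 aligns to that of Mrpl23 over 540 of its 580 bases with 100.0% identity, and this row held 17.6, 15.5 and 19.5 CPM in HFHC livers and 15.0, 14.5 and 17.4 CPM in Chow livers. Summed, both rows averaged 18.8 ± 2.04 CPM in HFHC livers and 16.5 ± 1.96 CPM in Chow livers (SD, n = 3 each), a log2 difference of 0.19. How the reads fall between these rows depends on the counting, so the level of Mrpl23 by itself is uncertain.

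Per kilobase of transcript, members differed from each other far more than the diets did. The level ran from 1.51 to 59.5 CPM per kilobase, a ratio of 39.5, with a median of 16.2 and quartiles of 8.99 and 25.4. Tested protein-coding genes had a median of 4.84 and quartiles of 1.39 and 13.8. Of the members, 46 lay within 2-fold of the family median. The highest levels per kilobase were those of Mrpl12 (59.5), Mrps21 (51.5) and Mrpl14 (49.8). The lowest were those of Mrpl23 (1.51), Mrps25 (1.72) and Mrpl19 (2.84). Reads of Mrpl23 may be divided with its pseudogene. Mrps25 and Mrpl19 share 69.8% and 36.0% of exonic bases with a gene on the opposite strand, and the strand setting was not given. These lowest levels, and so the ratio of 39.5, are therefore less certain. A single principal transcript stood for each gene, so a member with a shorter or longer form in liver would be placed too low or too high.

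**Figure D5:**
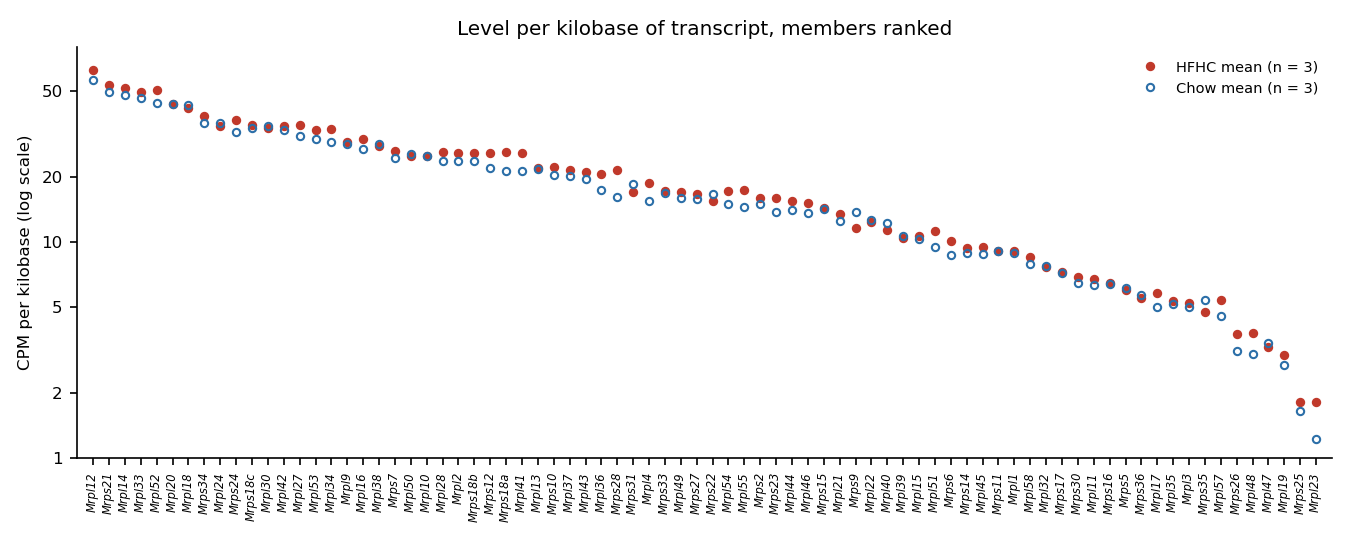
Mean level per kilobase of transcript (vertical axis, log scale) of the 78 members (horizontal axis, ranked from the highest, Mrpl12, to the lowest, Mrpl23), with HFHC means as filled red points and Chow means as open blue points (n = 3 each). For nearly every member the HFHC and Chow points lie close together, and the points run from 1.22 (Mrpl23, Chow) to 62.7 (Mrpl12, HFHC) CPM per kilobase.

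Variation between animals on the same diet was small. The range between libraries was taken in each diet on the log2 scale, and the larger of the 2 was kept for each gene. Its median was 0.26 for members and 0.36 for all tested genes, where 0.1 CPM was added before the log for all tested genes only. Members also had higher levels, with a median of 16.2 CPM per kilobase against 4.84 for tested protein-coding genes. The steadiest members were Mrpl38 (0.04), Mrpl37 (0.08) and Mrps27 (0.08), and the most variable were Mrpl23 (1.22), Mrps16 (0.46) and Mrpl14 (0.44). The range of Mrpl23 arose between Chow libraries, and those of Mrps16 and Mrpl14 between HFHC libraries.

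Members lay on 17 chromosomes, with 11 on chromosome 11 and 8 on chromosome 17. A protein-coding gene started on the opposite strand within 1000 bases of the start of 33 members (42.3%), against 15.8% of 12575 tested protein-coding genes. Mrpl46 and Mrps11 are such a pair, with starts 412 bases apart, and their log2 fold changes were 0.15 and -0.002. Of 27 tested partners outside the family, 1 passed as higher and 0 as lower, where 6.67% of all tested genes passed. The 1 that passed was Pnpla7, a lysophospholipase gene whose start lies 935 bases from that of Mrpl41 (0.76 ± 0.07, SE; adjusted p = 0.000604, edgeR). Mrpl41 had 20.3, 17.5 and 22.1 CPM in HFHC livers and 16.2, 17.5 and 15.8 CPM in Chow livers, with HFHC replicate 2 and Chow replicate 8 level (0.27, adjusted p = 0.167, edgeR). Pnpla7 was chosen after its values were seen.

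Genes that act with the mitochondrial ribosome were counted by the same test, by which 6.67% of all tested genes passed. Among 16 translation factors, 1 passed as higher and 0 as lower, with a median log2 fold change of 0.07 (0.033 without Chow replicate 7). The call was Mtif3, the mitochondrial initiation factor IF3, with 28.9, 30.5 and 34.3 CPM in HFHC livers and 24.3, 21.5 and 24.7 CPM in Chow livers (0.41 ± 0.10, SE; adjusted p = 0.0355, edgeR). Mtif3 was no longer called when any 1 of the 6 libraries was left out (adjusted p = 0.0514 to 0.101) or after correction for GC content and length. Among 26 assembly factors, 1 passed as higher and 0 as lower, with a median of 0.10. It was Ddx28, a helicase for assembly of the large subunit, with 13.6, 14.8 and 13.7 CPM in HFHC livers and 10.93, 11.03 and 11.09 CPM in Chow livers (0.35 ± 0.09, SE; adjusted p = 0.0499, edgeR). The call of Ddx28 was lost in 10 of 14 alternatives.

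Among 19 factors for mitochondrial DNA and RNA, 1 passed as higher and 0 as lower, with a median of 0.06 (0.035 without Chow replicate 8 and 0.091 without HFHC replicate 1). It was Hsd17b10, a subunit of mitochondrial RNase P that also oxidises branched-chain fatty acyl and steroid substrates, with 155, 179 and 183 CPM in HFHC livers and 114, 118 and 117 CPM in Chow livers. The diets were well apart (0.57 ± 0.09, SE; adjusted p = 0.00627, edgeR), and the call held in 14 of 14 alternatives. By edgeR and by DESeq2, 0 of 20 mitochondrial tRNA synthetases passed (median 0.06; 1 at an unadjusted p under 0.05) and 0 of 29 genes for import and proteostasis (median 0.06; 5 at an unadjusted p under 0.05), where 22.2% of all tested genes reached that unadjusted level. Without HFHC replicate 3 the median for import and proteostasis was -0.006. Without Chow replicate 8 the tRNA synthetase gene Nars2 was called lower (-0.49, adjusted p = 0.0164, edgeR; -0.33 and 0.204 with all libraries). Likewise 0 passed, and 0 reached an unadjusted p under 0.05, of 5 mitoribosomal proteins with other names (Dap3, Ptcd3, Chchd1, Aurkaip1 and Gadd45gip1; median -0.001).

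For nuclear genes of the respiratory chain, the median log2 fold change was 0.10 for 36 subunits of complex I, 0.06 for 4 of complex II and 0.05 for 9 of complex III. It was 0.11 for 12 subunits of complex IV and 0.06 for 17 of complex V. Without HFHC replicate 3 the medians were 0.041 for complex I, 0.017 for complex II, 0.023 for complex III, 0.047 for complex IV and -0.004 for complex V, and without Chow replicate 8 that of complex V was -0.002. Without HFHC replicate 2 they lay between 0.085 and 0.145. In these 5 lists 2 genes passed, both as higher, where 6.67% of all tested genes passed and 3.38% as higher. Ndufa8, a complex I subunit, had 60.1, 59.2 and 64.5 CPM in HFHC livers and 46.5, 48.6 and 48.0 CPM in Chow livers (0.36 ± 0.07, SE; adjusted p = 0.0218, edgeR), a call lost in 4 of 14 alternatives (up to 0.102). Uqcrq, a complex III subunit, had 230, 227 and 238 CPM in HFHC livers and 184, 163 and 180 CPM in Chow livers (0.40 ± 0.08, SE; adjusted p = 0.0192, edgeR), a call lost in 3 of 14 alternatives (up to 0.0577). After correction for GC content and length, the medians of the 5 complexes lay between -0.06 and 0.005, and that of complex I was -0.004.

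Most cytosolic ribosomal protein genes, which build the ribosome outside mitochondria, had values of the other sign. For most of this list the counts were not whole in all 6 libraries, so these levels are less certain. Some rows were very low, such as Rps27 (means of 0.683 CPM in HFHC and 1.01 CPM in Chow livers) and Rpl23a (0.95 and 0.705 CPM). Of 82 tested, 0 passed by edgeR or DESeq2, where 6.67% and 6.05% of all tested genes passed. An unadjusted p under 0.05 (edgeR) was reached by 9 of them, where 22.2% of all tested genes did so. Their median was -0.08, and 18 had positive fold changes, where 49.5% of all tested genes did. Their summed level was 4359, 3868 and 4700 CPM in HFHC livers and 4757, 4281 and 4889 CPM in Chow livers, with overlap. After correction for GC content and length the median was -0.18. In that fit 6 genes of the list passed as lower, and 415 of all 14866 tested genes. Without HFHC replicate 2 the median was -0.002, and 1 gene was called lower without Chow replicate 8 (median -0.14) and 1 without HFHC replicate 3 (median -0.17).

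Of 11 transcription regulators of nuclear genes for mitochondrial proteins, 0 passed by edgeR and 1 by DESeq2 (Gabpb2, lower in HFHC). Over all tested genes 6.67% passed by edgeR and 6.05% by DESeq2. Of the 11 regulators, 5 had an unadjusted p under 0.05 (edgeR), where 22.2% of all tested genes did. Positive fold changes were found for 2 regulators, with a median of -0.27, and for 49.5% of all tested genes. After correction for GC content and length the median of the regulators was -0.20, with 1 positive. Gabpa, the DNA-binding subunit of GABP, had 52.0, 57.1 and 55.9 CPM in HFHC livers and 67.5, 59.8 and 71.5 CPM in Chow livers (-0.27 ± 0.09, SE; adjusted p = 0.107, edgeR). Yy1 had 62.6, 69.5 and 62.3 CPM in HFHC livers and 81.8, 76.1 and 75.8 CPM in Chow livers (-0.26 ± 0.08, SE; adjusted p = 0.0816, edgeR). Sp1, a zinc finger factor that binds GC boxes, had 47.1, 46.5 and 41.2 CPM in HFHC livers and 55.6, 55.8 and 55.2 CPM in Chow livers (-0.30 ± 0.08, SE; adjusted p = 0.0509, edgeR). It was called lower with RLE factors (0.0499) and with a mean of at least 50 counts (0.0489), and its log2 fold change was -0.13 after correction for GC content and length (adjusted p = 0.250, edgeR). In all 3 every HFHC library lay below every Chow library. Nrf1, which encodes the factor that binds the NRF1 letters, had 8.75, 9.61 and 7.41 CPM in HFHC livers and 9.75, 10.6 and 8.18 CPM in Chow livers, with overlap. Its log2 fold change was -0.15 ± 0.14 (SE; adjusted p = 0.583, edgeR). Gabpa, Gabpb2, Yy1 and Nrf1 were chosen after their values were seen.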

How the data were processed

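RNA was sequenced from 6 mouse livers, 3 per diet. Per the submitters' processing notes, STAR 2.7.3a, Partek 9 and the build mm10 were used. The annotation and strand setting of the counting were not given in the sources used here. Expected counts (estimated counts) per gene were deposited without normalization. Values that were not whole made up 22.4% (tolerance 0.01). For 17 members values were not whole in all 6 libraries, among them Mrpl48, Mrpl51, Mrpl12, Mrps18b and Mrps18c, and their levels are less certain.

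Counts were rounded and filtered by filterByExpr (minimum count 10), which left 14896 genes. The diets were compared with edgeR 4.0.16 (TMM factors, quasi-likelihood F test, Benjamini-Hochberg adjustment, threshold 0.05), without covariates since the labels give no batch or pairing. The SE was the size of the log2 fold change divided by the square root of F. CPM per kilobase used the longest APPRIS principal transcript of GENCODE M21. Pseudogenes were aligned with BLAST 2.17.0. Promoters came from RefSeq (GRCm38.p6). Alternatives, 14 in all, included DESeq2 1.42.0 and limma 3.58.1. Fits ran in R 4.3.3 and were tested on simulated data, and summaries were made in Python 3.11.15 with pandas 2.3.3.

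Named members were the 6 with the smallest p (none was called), the 3 highest and 3 lowest per kilobase, the 3 most and 3 least variable within a diet, and the Mrps18 paralogs. From each of 13 pathway lists up to 3 called genes were taken, or the gene with the smallest p. Members described for their role or direction beyond these were chosen after their values were seen. The members and lists were chosen with earlier results of these data known, so counts in them are descriptions. Classes by bacterial homology are textbook groupings written after a first fit. Replicates of a diet are separate animals per the labels. Exons of Mrpl53, Mrps18c and Mrps34 overlap those of another gene on the same strand by 20% or more, and those of 7 members do so on the opposite strand.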

Additional observations from a re-analysis of the deposited data

How the results depend on the processing

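The count of members called lower was 0 in the reported fit and in all 14 alternatives. The count called higher was 0 as reported, 1 with DESeq2 (Mrps28), 2 with upper-quartile factors (Mrps18a and Mrpl48) and 2 after correction for GC content and length (Mrpl48 and Mrpl17). It was 0 in the other 11 alternatives, among them the 6 fits that each left out 1 library. Over all tested genes 6.05% passed with DESeq2, 6.68% with upper-quartile factors (595 higher and 400 lower) and 5.93% after the GC and length correction (466 higher and 415 lower). The cause of the changes in member calls was not tested. The median log2 fold change of members was 0.04 after the GC and length correction, where that of all tested genes was -0.014. With upper-quartile factors it was 0.13, where that of all tested genes was 0.025. In the fits that left out 1 library it was 0.05 to 0.14. Leaving out Chow replicate 7 lowered the calls over all genes to 207 higher and 154 lower, against 503 and 491 with all libraries. They were 264 and 195 without Chow replicate 9. With 1 HFHC replicate left out they were 267 to 382 higher and 214 to 305 lower. Without Chow replicate 8 they were 527 higher and 553 lower. Among pathway genes, Ndufa8 was not called without Chow replicate 7 or 9, without HFHC replicate 1 or after correction for GC content and length (adjusted p up to 0.102), and Uqcrq was not called without Chow replicate 7 or 9 or HFHC replicate 1 (up to 0.0577), by edgeR. With a mean of at least 50 counts, 77 members were tested. No paired analysis was possible because the replicate numbers of the diets (1 to 3 and 7 to 9) do not overlap and the labels do not say which of the littermates shared a litter. With 3 animals per diet the 95% interval of a member reached a median of 0.21 to each side on the log2 scale, which limits the differences that could be seen.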
